A study of Mus musculus with 16 samples.

Results

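The SLAM receptor genes that lie on mouse chromosome 1 in the same region as Aim2, Slamf1, Slamf6, Slamf7, Ly9, Cd48, Cd84 and Cd244, were followed in CD4+ T cells of WT and Aim2-/- mice. Members were chosen by gene symbol, and each of the 7 matched exactly 1 of the 53090 gene rows in every library. RNA came from naïve CD4+ T cells of the spleen (Tn) and from CD4+ T cells kept for 2 days (48 h) in Treg conditions, which were antibodies to CD3 and CD28 with TGF-β and IL-2 (Treg). Both genotypes were on a C57BL/6 background, the mice were bred in house, cohoused and matched for sex and age, and the Aim2 deficiency of the Aim2-/- mice was not restricted to T cells. The 4 groups, WT Tn, Aim2-/- Tn, WT Treg and Aim2-/- Treg, held 4 libraries each, numbered 1 to 4. Whether each library came from separate mice is not given in the sources used here, and p-values then measure the spread between these samples.

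SLAM receptors are cell surface proteins of the immunoglobulin superfamily that leukocytes use to read contact with their neighbours. Slamf1, Slamf6, Slamf7, Ly9 and Cd84 bind a copy of themselves on the opposite cell, while Cd48, which is held in the membrane by a lipid anchor and has no signalling tail, is the ligand of Cd244 and also binds Cd2. Tyrosine motifs in the receptor tails recruit the small adaptor SAP, encoded by Sh2d1a, which brings in the kinase Fyn, and in its absence inhibitory phosphatases. In CD4+ T cells this pathway is known for its part in cytokine production and in the long contacts between T cells and B cells.

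The 7 genes formed a cluster of 394.0 kb on chromosome 1, and its end nearest to Aim2 lay 1397.7 kb from that gene (GRCm38, GENCODE M21). From the far end, Cd244 (ENSMUSG00000004709.14) was at chr1:171559193-171609746 on the plus strand, Ly9 (ENSMUSG00000004707.14) at chr1:171588624-171607410 on the minus strand, and Slamf7 (ENSMUSG00000038179.13) at chr1:171632403-171653035 on the minus strand. Cd48 (ENSMUSG00000015355.13) was at chr1:171682009-171705258, Slamf1 (ENSMUSG00000015316.11) at chr1:171767127-171801184, Cd84 (ENSMUSG00000038147.13) at chr1:171839697-171890718 and Slamf6 (ENSMUSG00000015314.10) at chr1:171917515-171953170, all on the plus strand. Ly9 lay wholly inside the Cd244 gene on the opposite strand, and the exons of the pair did not overlap. The strand setting used for counting is not given in the sources used here.

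The 250 bases before the RefSeq start (GRCm38.p6, plus strand, 5′ to 3′) are shown for Slamf6 and Cd84, the members with the largest falls in Treg culture, and for Slamf1, the member that rose. They were searched on both strands for 5 letter strings. The string CTTTGA, known from TCF and LEF factors, was present in 13.8% of 32851 promoter windows of the same length. The NFAT string GGAAAA was present in 20.4% of them and the RUNX string ACCACA in 14.0%. The Sp1 string GGGCGG was present in 32.7% of them and the start-site string TATAAA in 12.4%. Capitals mark a match, here the RUNX letters on the minus strand of the Cd84 window, which overlap no other match.
Slamf6, chr1:171917212-171917461: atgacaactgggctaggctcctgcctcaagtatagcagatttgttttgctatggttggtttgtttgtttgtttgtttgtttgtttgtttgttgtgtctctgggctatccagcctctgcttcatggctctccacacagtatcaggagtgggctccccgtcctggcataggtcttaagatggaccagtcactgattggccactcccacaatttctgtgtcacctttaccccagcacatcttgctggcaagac
Cd84, chr1:171839447-171839696: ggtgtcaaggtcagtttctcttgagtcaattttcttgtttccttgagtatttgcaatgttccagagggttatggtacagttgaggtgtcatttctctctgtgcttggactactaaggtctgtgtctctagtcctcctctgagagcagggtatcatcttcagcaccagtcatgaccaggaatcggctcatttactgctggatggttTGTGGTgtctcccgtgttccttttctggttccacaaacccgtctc
Slamf1, chr1:171766882-171767131: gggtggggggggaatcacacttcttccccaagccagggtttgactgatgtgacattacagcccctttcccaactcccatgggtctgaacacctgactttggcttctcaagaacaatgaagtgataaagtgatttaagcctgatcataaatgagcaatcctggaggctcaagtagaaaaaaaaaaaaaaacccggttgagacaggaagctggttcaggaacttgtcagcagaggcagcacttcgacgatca
The Slamf6 and Slamf1 windows held none of the 5 strings. All 250 bases of the Slamf6 window also lay within the gene of the antisense transcript Gm37065, though in none of its exons. RefSeq windows were matched for 6 of the 7 members, and the GC content of these windows was 38.0% to 53.2%, against a median of 52.4% over all windows.

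The libraries held 22516424 to 34533316 counts, so that 3 counts, taken as the floor, came to 0.0869 to 0.127 CPM (counts scaled to the library's total and its TMM factor). Floors cover counting error only. Aim2 was lower in every Aim2-/- library, at 6.61 to 10.8 CPM against 32.3 to 43.3 CPM in WT libraries of either state. CD4 T cell markers were present in all libraries, and Foxp3 was at 1.98 to 4.02 CPM in Tn and 278 to 574 CPM in Treg. The Treg markers Il2ra and Ikzf2 were also higher in Treg in both genotypes, at an adjusted p under 0.05 by edgeR. Ctla4, a further Treg marker, was not. Its log2 fold change was 0.59 in WT (adjusted p = 0.36 by edgeR) and -0.08 in Aim2-/- cells (adjusted p = 0.56 by edgeR). WT Tn libraries 3 and 4 stood apart from the other Tn libraries, with Ctla4 at 12.8 and 17.6 CPM against 64.5 to 80.6 CPM. In Treg, WT library 4 and Aim2-/- libraries 3 and 4 had the lowest Foxp3 (278 to 329 CPM, against 496 to 574 CPM).

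Expressed per kilobase of exon, the ligand Cd48 and the receptor Ly9 were the most abundant members in all 4 groups. In WT Tn cells Cd48 was at 63.8 ± 18.0 CPM per kb (SD, n = 4) and Ly9 at 59.3 ± 4.99, and their libraries overlapped. Cd84 followed at 15.4 ± 0.587, Slamf6 at 11.6 ± 1.94, Slamf1 at 2.97 ± 0.913, Slamf7 at 0.718 ± 0.244 and Cd244 at 0.0402 ± 0.0238 CPM per kb, and no neighbours in that order overlapped from Ly9 downwards. The order changed in Treg culture. In WT Treg cells Slamf1 followed Cd48 and Ly9 at 4.75 ± 0.602 CPM per kb, above Cd84 at 3.24 ± 0.357 and Slamf6 at 1.7 ± 0.435, and no neighbours overlapped. Aim2-/- cells held the same order in Treg, and in Tn Ly9 came before Cd48, again with overlapping libraries. The order within Tn rests on the length used, because Slamf6 has 10832 bases of exon and Cd48 1189. Per kilobase of coding sequence Slamf6 came first in WT Tn cells, at 106 ± 17.7 CPM per kb, and its libraries overlapped those of Cd48 at 105 ± 29.8 CPM per kb. In Aim2-/- Tn cells Slamf6 also came first by coding length, at 128.5 ± 10.3 CPM per kb. Its libraries did not overlap those of Ly9, next at 104.6 ± 4.15. Cd48, at 91.3 ± 14.3, came after Cd84, at 104.3 ± 9.19, with overlapping libraries. In Treg the order by coding length was the same as by exon length, with overlapping libraries for Cd84 and Slamf6.

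**Figure D1:**
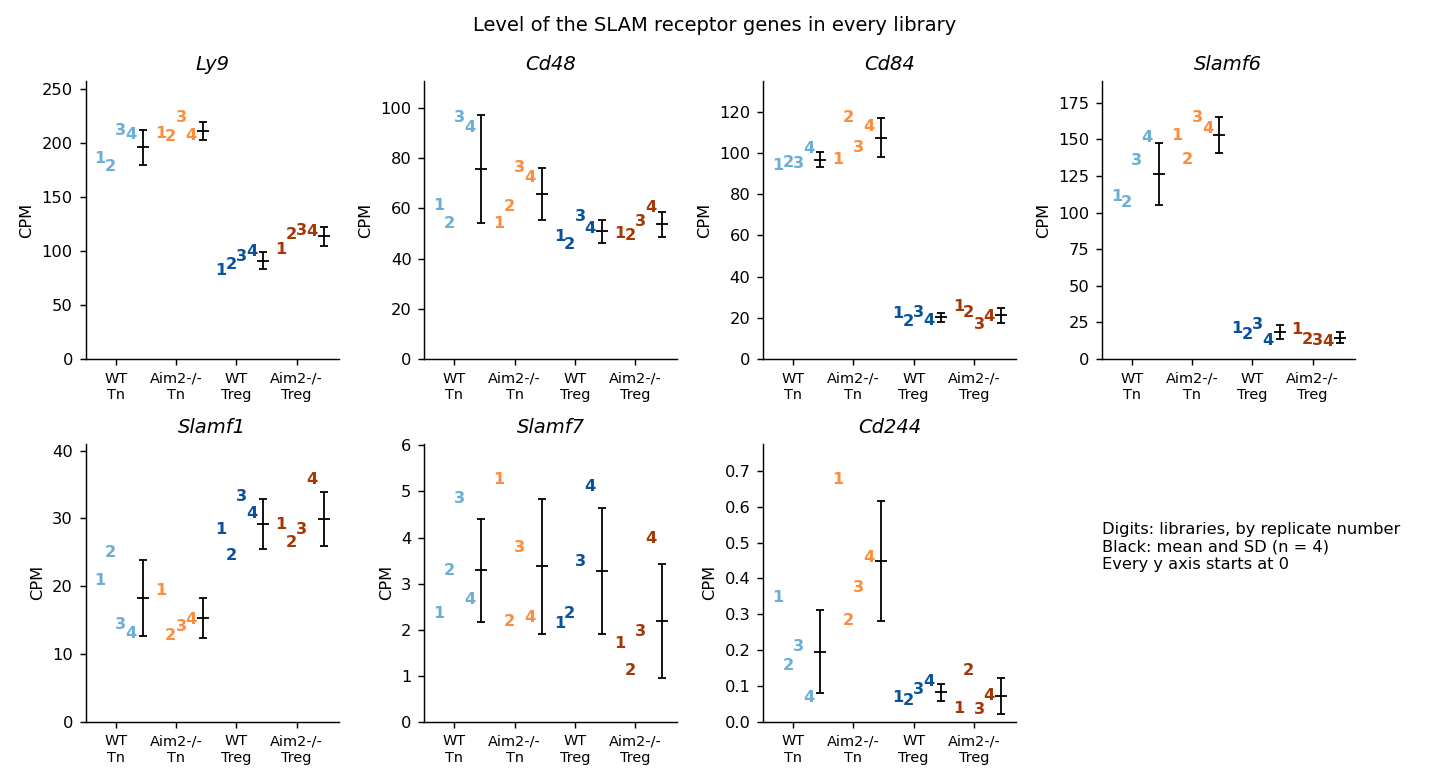
Level of each SLAM receptor gene in CPM (y axes, each from 0) in the 4 groups (x axes), with 1 digit per library giving its replicate number and the mean with SD in black. Slamf6, Cd84 and Ly9 are lower in all Treg libraries than in any Tn library, and Cd244 stays under 1 CPM throughout.

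What Treg culture did to the receptors in each genotype was asked first. In WT cells 4 of the 6 members tested fell and 1 rose, and in Aim2-/- cells the counts were the same, 4 and 1, where a call means an adjusted p under 0.05. These counts are near the background, since 76.9% of 13675 genes were called in WT cells (37.7% higher, 39.2% lower) and 79.3% of 13713 in Aim2-/- cells (39.1% higher, 40.2% lower). The members' median log2 fold change was -0.87 in WT cells and -0.77 in Aim2-/- cells, against -0.05 and -0.04 over all genes tested. In bulk RNA, fewer cells with a transcript and less of it per cell cannot be told apart.

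Slamf6 (Ly108), a receptor that signals through SAP, had the largest fall. It was at 111, 107, 135 and 151 CPM in WT Tn libraries 1 to 4 and at 20.5, 16.6, 23.7 and 12.9 CPM in WT Treg. In Aim2-/- cells it was at 153, 136, 165 and 158 CPM in Tn and at 20.0, 13.2, 12.3 and 12.3 CPM in Treg. The states did not overlap in either genotype, as for 72.9% of the genes tested in WT and 74.8% in Aim2-/- cells, and the lowest Tn library lay far above the highest Treg library. Its log2 fold change was -2.80 in WT cells (SE 0.20, adjusted p = 9e-07), a 6.98-fold fall, and -3.41 in Aim2-/- cells (SE 0.16, adjusted p = 6.2e-09), a 10.7-fold fall. Of the genes tested, 5.52% in WT and 4.44% in Aim2-/- cells had a lower log2 fold change.

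Cd84, another receptor that binds itself, had the next largest fall in both genotypes. Its levels were 94, 95.5, 94.7 and 102 CPM in WT Tn and 21.9, 18.3, 22.6 and 18.5 CPM in WT Treg. In Aim2-/- cells they were 96.5, 117, 102 and 113 CPM in Tn and 25.4, 22.4, 16.8 and 20.6 CPM in Treg. Tn and Treg libraries were well separated, where 72.9% of the genes tested in WT and 74.8% in Aim2-/- cells did not overlap. The log2 fold change of Cd84 was -2.28 in WT (SE 0.09, adjusted p = 2e-08) and -2.34 in Aim2-/- cells (SE 0.13, adjusted p = 1.6e-08).

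Ly9 (CD229), the SLAM receptor with the highest count level here in CPM, fell less and stayed well expressed in Treg. It was at 186, 179, 212 and 208 CPM in WT Tn and at 82.5, 87.5, 95.5 and 99.6 CPM in WT Treg. In Aim2-/- cells Ly9 was at 209, 206, 224 and 207 CPM in Tn and at 101, 116, 120 and 118 CPM in Treg. No Treg library reached the level of a Tn library, and the states did not overlap for 72.9% of the genes tested in WT and 74.8% in Aim2-/- cells. The log2 fold change of Ly9 was -1.14 in WT (SE 0.09, adjusted p = 1.3e-06) and -0.91 in Aim2-/- cells (SE 0.08, adjusted p = 6.2e-07).

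Slamf1 (CD150), the receptor that gave the family its name, was the member that rose. Its levels were 20.8, 25.0, 14.3 and 13.0 CPM in WT Tn and 28.3, 24.6, 33.3 and 30.7 CPM in WT Treg. In Aim2-/- cells it was at 19.4, 12.7, 14.0 and 15 CPM in Tn and at 29.2, 26.4, 28.3 and 35.7 CPM in Treg. All Aim2-/- Treg libraries lay above all Aim2-/- Tn libraries, and the states did not overlap for 74.8% of the genes tested in Aim2-/- cells. WT Tn library 2, however, lay above WT Treg library 2. On the log2 scale the change was 0.64 in WT (SE 0.20, adjusted p = 0.016) and 0.96 in Aim2-/- cells (SE 0.14, adjusted p = 7.2e-05). The WT value rested on WT Tn libraries 3 and 4, without which Slamf1 had a log2 fold change of 0.30 (adjusted p = 0.077). With libraries 1 and 2 of both states alone it was 0.23 (adjusted p = 0.099), and with libraries 3 and 4 alone 1.2 (adjusted p = 8e-05).

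Cd48, the lipid-anchored ligand, showed the smallest of the called falls. It was at 61.0, 53.9, 96.3 and 92.0 CPM in WT Tn and at 49.0, 45.6, 56.6 and 52.2 CPM in WT Treg. In Aim2-/- cells Cd48 was at 53.9, 60.6, 76.2 and 72.2 CPM in Tn and at 50.0, 49.4, 54.9 and 60.3 CPM in Treg. The states overlapped in both genotypes, with a log2 fold change of -0.61 in WT (SE 0.18, adjusted p = 0.012) and -0.30 in Aim2-/- cells (SE 0.12, adjusted p = 0.03). Neither call was firm. Without WT Tn libraries 3 and 4 the WT value for Cd48 was -0.23 (adjusted p = 0.072), and without WT Treg library 2 it was -0.51 (adjusted p = 0.051). In Aim2-/- cells the adjusted p of Cd48 was 0.12, 0.14 and 0.088 without Treg library 1, 2 or 3 and 0.11 with all 16 libraries in the fit.

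Slamf7, a receptor best known from plasma cells and cytotoxic lymphocytes, was low and scattered. It ranged from 2.35 to 4.86 CPM in WT Tn, 2.13 to 5.12 CPM in WT Treg, 2.18 to 5.25 CPM in Aim2-/- Tn and 1.11 to 3.98 CPM in Aim2-/- Treg. All groups overlapped, and neither the WT log2 fold change of -0.04 (SE 0.33, adjusted p = 0.91) nor the Aim2-/- value of -0.63 (SE 0.40, adjusted p = 0.17) passed the test. Without Aim2-/- Treg library 4 the Aim2-/- value of Slamf7 was -1.04 (adjusted p = 0.019). It was -1.39 with libraries 1 and 2 alone (adjusted p = 0.035) and -0.039 with libraries 3 and 4 alone (adjusted p = 0.93). Of the Slamf7 exon bases, 9.24% are shared with the antisense transcript Gm37787, and without the strand setting reads of the pair cannot be told apart there.

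Cd244 (2B4), the receptor for Cd48 and a marker of NK and cytotoxic cells, was near the floor. It had 10, 4, 5 and 2 counts in WT Tn, 18, 9, 10 and 14 in Aim2-/- Tn, 2, 2, 3 and 3 in WT Treg and 1, 4, 1 and 2 in Aim2-/- Treg. It was too low for the fit in either culture comparison. In a two-sided exact permutation test on log2 CPM, whose smallest p is 0.029, the culture difference of Cd244 had p = 0.086 in WT cells and p = 0.029 in Aim2-/- cells, where every Tn library lay above every Treg library. Of the genes tested in Aim2-/- culture, 74.8% also had states that did not overlap. The mean of WT Tn was 1.76 times the highest WT Treg floor of 0.111 CPM, but the WT states overlapped. WT Tn library 4, at 0.0682 CPM, lay under WT Treg libraries 3 and 4, at 0.0906 and 0.111 CPM. The summed level of 5 NK cell markers was also lower in Treg, at 16.3 to 37.2 CPM over the Tn libraries and 1.63 to 8.04 CPM over the Treg libraries. Most of the sum in Tn was Eomes, with means of 16.3 CPM in WT and 18.7 CPM in Aim2-/- cells. Ncr1 had at most 7 counts and Klra8 at most 8. The summed markers of B cells, myeloid cells, CD8 T cells and erythroid cells were also lower in Treg. For myeloid cells they were at 3.6 to 8.59 CPM over the Tn libraries and 0.236 to 2.53 CPM over the Treg libraries. The part of NK cells or of these other cells in the Cd244 result was not tested.

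**Figure D2:**
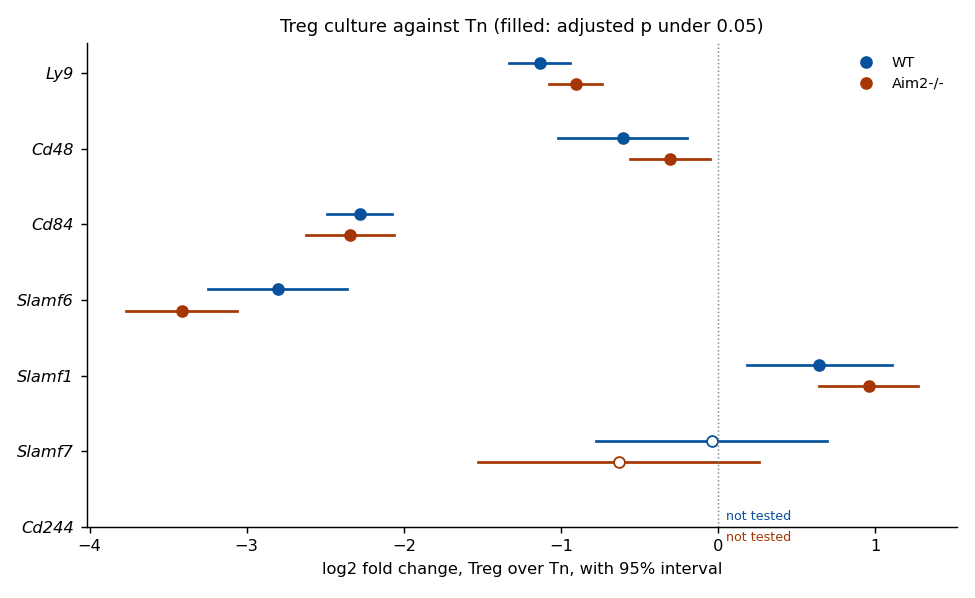
log2 fold change of each member in Treg over Tn (x axis), with its 95% interval, in WT and Aim2-/- cells. Filled points have an adjusted p under 0.05, and Cd244 was too low to be fitted. Slamf6, Cd84 and Ly9 lie left of 0 and Slamf1 right of 0 in both genotypes, while both intervals of Slamf7 cross 0.

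Whether the genes of the SLAM cluster differed between the genotypes was asked next. Any sequence near the targeted gene that differs between the WT and Aim2-/- mice goes with the genotype. For genes of this region, the loss of Aim2 and such linked differences cannot be told apart here. In Tn cells 0 of the 7 members were called by edgeR, against 0.231% of 13441 genes, and DESeq2 and limma-voom also called 0. At an unadjusted p under 0.05 there were 2 members, Slamf6 and Cd244, against 10.3% of all genes tested. The members' median log2 fold change was 0.12, against 0.01 over all genes.

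Slamf6 was higher in Aim2-/- Tn libraries on average, at 153 ± 12.3 CPM against 126 ± 21.1 CPM in WT (SD, n = 4). WT libraries 1 and 2 were the lowest, and WT library 4 lay above Aim2-/- library 2, so that the groups overlapped. In the fit, the log2 fold change was 0.28 (95% interval 0.02 to 0.55, adjusted p = 0.46 by edgeR). Its value for Slamf6 was 0.42 with libraries 1 and 2 alone (adjusted p = 0.16), 0.16 with libraries 3 and 4 alone (adjusted p = 0.4) and 0.49 without WT Tn libraries 3 and 4 (adjusted p = 0.06).

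Cd244 had a log2 fold change of 1.18 in Aim2-/- Tn over WT Tn (95% interval 0.09 to 2.26, adjusted p = 0.46 by edgeR). It rested on 2 to 18 counts per library, and the groups overlapped. Cd244 reached the filter of 10 counts only in WT Tn library 1 and Aim2-/- Tn libraries 1, 3 and 4, which was just enough. It was thus tested mostly through the group where it was higher. The summed NK cell markers, mostly Eomes, did not separate the genotypes, with sums of 21.5 to 31.4 CPM in WT Tn and 16.3 to 37.2 CPM in Aim2-/- Tn. The summed level of 8 B cell markers was 1.54 to 2.16 CPM in WT and 2.44 to 3.23 CPM in Aim2-/- Tn, and that of 4 erythroid markers 0.198 to 1.52 CPM and 1.58 to 2.44 CPM. The part of these cells in the Cd244 and Slamf6 values was not tested.

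The other 5 members did not pass the test in Tn, and their groups overlapped. The log2 fold change was -0.25 for Slamf1 (95% interval -0.74 to 0.23) and -0.20 for Cd48 (-0.64 to 0.23). It was 0.12 for Ly9 (-0.07 to 0.30), 0.16 for Cd84 (-0.03 to 0.34) and 0.04 for Slamf7 (-0.69 to 0.77). As folds, the interval was 0.95 to 1.23 for Ly9, 0.98 to 1.27 for Cd84, and wider for Slamf1, Cd48 and Slamf7. Without WT Tn libraries 3 and 4 the sign of the Cd48 value turned, to 0.19, Slamf1 was at -0.58 (adjusted p = 0.093) and Ly9 at 0.21 (adjusted p = 0.18). Without WT Tn library 2 Slamf1 was at -0.065 (adjusted p = 0.95).

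In Treg cells 0 of the 6 members tested were called by edgeR, against 0.219% of 13221 genes, and DESeq2 and limma-voom again called 0. At an unadjusted p under 0.05 there was 1 member, Ly9, against 2.31% of all genes tested. The members' median log2 fold change was 0.05, against 0 over all genes.

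Ly9 was the member whose Treg groups did not overlap, which was so for 2.26% of the genes tested (1.29% higher in Aim2-/-). Its lowest Aim2-/- library, at 101 CPM, lay just above its highest WT library, at 99.6 CPM, and the means were 114 ± 8.39 CPM and 91.3 ± 7.72 CPM (SD, n = 4). Ly9 had a log2 fold change of 0.31 (95% interval 0.14 to 0.48), a 1.24-fold difference (adjusted p = 0.6 by edgeR). By unadjusted p, Ly9 ranked 54 among the 13221 genes tested. The value was 0.35 with libraries 1 and 2 alone and 0.28 with libraries 3 and 4 alone. When a term for this split was added, 38 genes were called, against 29 without it, and Ly9 was among them, at 0.31 (adjusted p = 0.046). In Tn cells Ly9 was 1.08-fold higher (95% interval 0.95 to 1.23), and the difference between the states was 0.21 on the log2 scale (adjusted p = 1 for the interaction by edgeR).

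Slamf6 was at 18.4 ± 4.71 CPM in WT Treg and 14.4 ± 3.71 CPM in Aim2-/- Treg, a log2 fold change of -0.36 (95% interval -0.85 to 0.14, adjusted p = 1). The groups overlapped. WT library 4 and Aim2-/- libraries 3 and 4, the libraries with the lowest Foxp3, were the 3 lowest in Slamf6 at 12.3 to 12.9 CPM, and Aim2-/- library 2 was close to them at 13.2 CPM with Foxp3 at 523 CPM. The part of the culture's Foxp3 level in the Slamf6 value was not tested.

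The remaining members overlapped between genotypes in Treg. Slamf1 had a log2 fold change of 0.03 (95% interval -0.24 to 0.29). The value was 0.07 for Cd48 (-0.12 to 0.27), 0.07 for Cd84 (-0.23 to 0.37) and -0.58 for Slamf7 (-1.51 to 0.35). Cd244 was at or under 4 counts in all Treg libraries and had p = 0.66 in the exact permutation test.

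**Figure D3:**
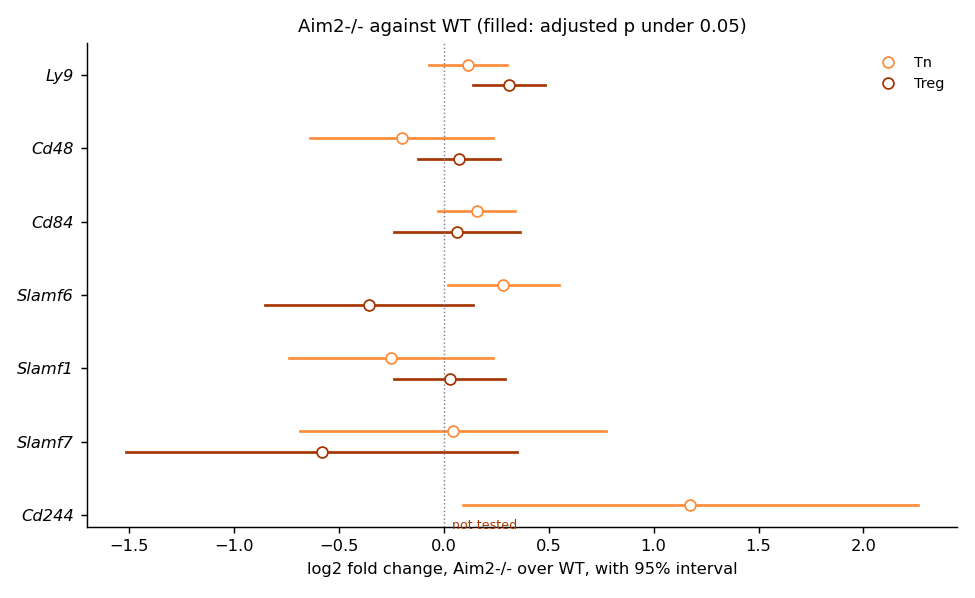
log2 fold change of each member in Aim2-/- over WT cells (x axis), with its 95% interval, in Tn and Treg. No point is filled, since no adjusted p was under 0.05, and the intervals of Slamf6 and Cd244 in Tn and of Ly9 in Treg leave out 0.

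The difference between the genotype effects of Tn and Treg was called for 0 of the 7 members by edgeR, DESeq2 and limma-voom, against 0.0205% of 14669 genes. At an unadjusted p under 0.05 there was 1 member, against 3.49% of the genes. It was Slamf6, which lay higher in Aim2-/- than in WT cells in Tn and lower in Treg, with a difference of -0.63 on the log2 scale (95% interval -1.18 to -0.08, adjusted p = 1). Without WT Tn libraries 3 and 4 the Slamf6 difference was -0.87 (adjusted p = 0.19). Intervals of the other members included 0.

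Between the outermost members 12 further genes are annotated, and 3 of them were tested in Tn. Of these, 1 was called, the antisense transcript Gm37065 (chr1:171909957-171919356, minus strand). It overlaps the start of the Slamf6 gene by 1842 bases on the opposite strand and shares no exon base with it. Gm37065 was at 3.73, 3.52, 4.73 and 4.13 CPM in WT Tn and at 0.45, 0.158, 0.15 and 0.197 CPM in Aim2-/- Tn. The groups lay far apart, WT library 3 highest and Aim2-/- library 3 lowest. The log2 fold change of Gm37065 was -4.06 (SE 0.33, adjusted p = 0.00016), a 16.7-fold fall, beside the Slamf6 value of 0.28 in the same libraries. In WT Treg cells Gm37065 was at 0 to 0.338 CPM, and in Aim2-/- Treg cells at 0 to 0.144 CPM, which was too low to test between genotypes. Its culture fall in WT cells was -4.13 on the log2 scale (SE 0.49, adjusted p = 3.4e-05), in the same direction as that of Slamf6. There too it passed the filter mostly through WT Tn, with 0 to 10 counts in WT Treg.

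The other two genes tested in Tn, named after their values were seen, had an unadjusted p under 0.05 and were not called. A630035G10Rik, which starts beside Cd48 on the opposite strand, was at 0.207, 0.198, 0.211 and 0.239 CPM in WT Tn and at 0.562, 1.07, 0.563 and 0.755 CPM in Aim2-/- Tn. Its groups did not overlap, as for 6.95% of the genes tested, and its log2 fold change was 1.78 (SE 0.35, adjusted p = 0.12 by edgeR). A630035G10Rik had 5 to 7 counts in WT Tn and 15 to 34 in Aim2-/- Tn. It passed the filter of 10 counts only through the Aim2-/- libraries, so being tested at all depended on the higher group. Gm10521, between Cd84 and Slamf6, was at 10.1 ± 2.08 CPM in WT Tn and 6.17 ± 2.33 CPM in Aim2-/- Tn. Its log2 fold change was -0.70 in Tn (adjusted p = 0.42 by edgeR) and -0.95 in Treg (adjusted p = 0.65 by edgeR). The Treg groups, 0.810 to 1.19 CPM in WT and 0.415 to 0.575 CPM in Aim2-/-, did not overlap, as for 2.26% of the genes tested.

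**Figure D4:**
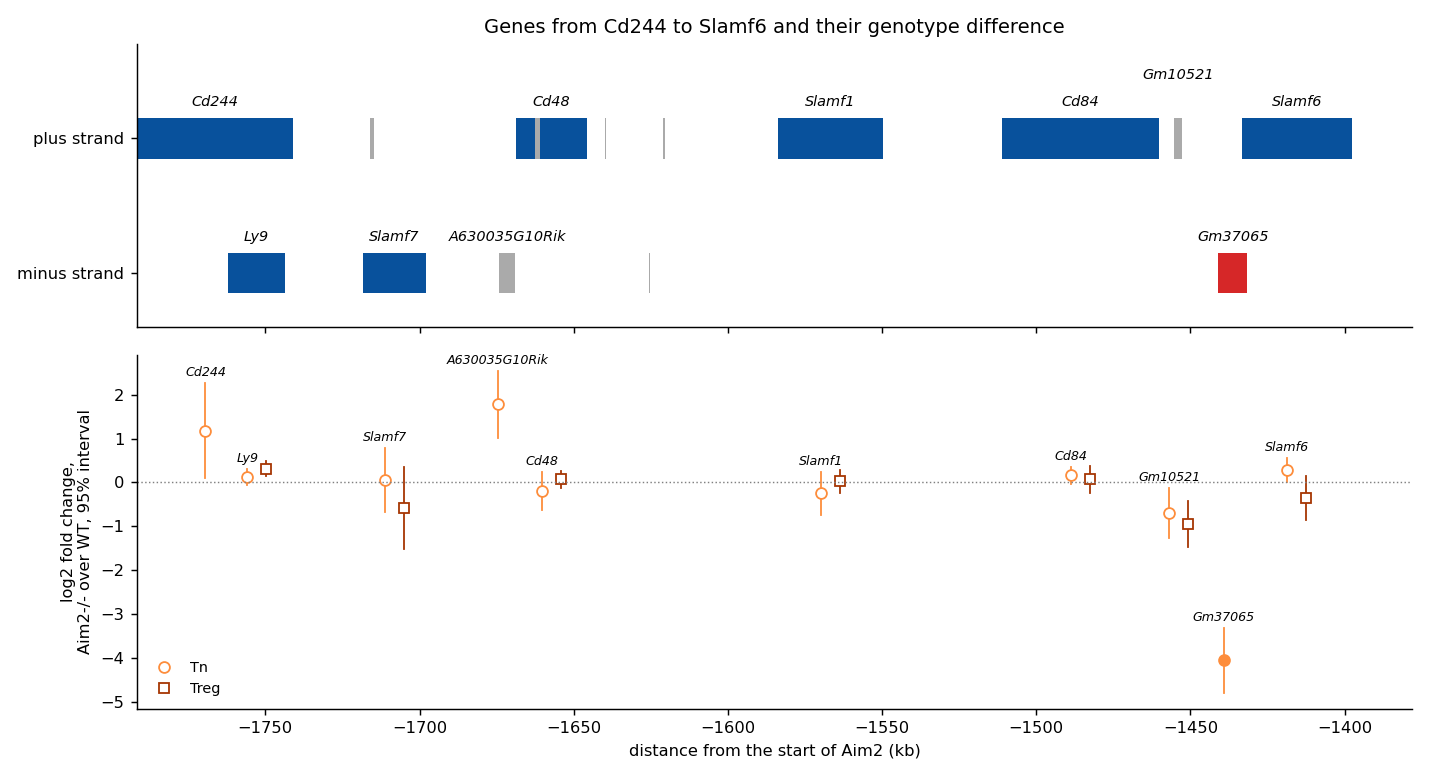
Top, the genes from Cd244 to Slamf6 by strand (members blue, Gm37065 red, others grey) against the distance from the start of Aim2 in kb. Bottom, the log2 fold change of Aim2-/- over WT for the genes tested, with 95% intervals, in Tn (circles) and Treg (squares), in which Gm37065 in Tn, at -4.06, is the only filled and therefore called point.

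Beyond the cluster, 20 genes of the SLAM pathway were followed, of which 16 were tested in Tn and 17 in Treg. Between genotypes 0 were called in either state by edgeR, with 1 at an unadjusted p under 0.05 in each, Rasa1 in Tn and Slamf9 in Treg, against 10.3% and 2.31% of all genes tested. With libraries 3 and 4 alone, 1 was called in Tn, Bcl10, in a setting that called 499 genes, against 31 in the main fit. In culture 6 were higher, 7 lower and 4 not called in WT cells, and 8 were higher, 7 lower and 2 not called in Aim2-/- cells, again near the background. Slamf9, called higher in both, passed the filter there only through its Treg libraries. The median log2 fold change of the pathway genes tested was 0.09 and 0.19.

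Sh2d1a, which encodes the adaptor SAP, fell in culture by 0.80 on the log2 scale in WT (SE 0.21, adjusted p = 0.0061) and by 0.70 in Aim2-/- cells (SE 0.13, adjusted p = 0.00046). With libraries 3 and 4 alone the WT value of Sh2d1a was -0.70 (adjusted p = 0.23). The related adaptors Sh2d1b1 and Sh2d1b2 were too low to be tested. Cd2, the second receptor for Cd48, rose in WT cells by 0.28 (SE 0.08, adjusted p = 0.0083) and had 0.22 in Aim2-/- cells (SE 0.11, adjusted p = 0.097). With libraries 3 and 4 alone Cd2 had 0.16 in WT (adjusted p = 0.094) and 0.015 in Aim2-/- cells (adjusted p = 0.92). The Aim2-/- value of Cd2 was called under 5 of 19 alternatives, among them libraries 1 and 2 alone at 0.44 (adjusted p = 0.017).

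Among the kinases, phosphatases and downstream proteins, the 4 with the largest changes were the same in both genotypes. Prkcq, the protein kinase C isoform of the T cell contact site, had -2.0 in WT and -2.08 in Aim2-/- cells (adjusted p = 1.8e-08 and 4.3e-09). Bcl10, a scaffold on the way to NF-κB, had -1.48 and -1.42 (adjusted p = 0.0016 and 2.4e-07), and with libraries 3 and 4 alone the WT value of Bcl10 was -0.70 (adjusted p = 0.00044). Dok2, an inhibitory docking protein, had -1.31 and -1.39 (adjusted p = 2.1e-06 and 5.7e-07). Nfkb1, a subunit of NF-κB, rose by 1.24 in both (adjusted p = 2.6e-07 and 5.4e-08).

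Of the remaining SLAM family genes on chromosome 1, Slamf9 lay 872.3 kb and Slamf8 760.3 kb from Aim2. Slamf9, a receptor without signalling motifs in its tail, was at or under 3 counts in all Tn libraries. In Treg it was at 0.911, 1.13, 0.785 and 0.890 CPM in WT and at 1.21, 1.69, 2.39 and 1.86 CPM in Aim2-/- libraries. The Treg mean of Slamf9 was 7.31 times the highest Tn floor of 0.127 CPM in WT, and 15.8 times that of 0.113 CPM in Aim2-/- cells. The genotypes did not overlap in Treg, as for 2.26% of the genes tested (1.29% higher in Aim2-/-), Aim2-/- library 3 being the highest. The log2 fold change of Slamf9 was 0.94 (95% interval 0.39 to 1.48, adjusted p = 0.79 by edgeR), on 24 to 71 counts per library. Slamf8 had 0 to 5 counts in all libraries and was not tested.

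Over all 16 libraries, the gene with the most similar log2 CPM was A930005H10Rik for Slamf6 (Pearson r = 0.997) and Id2 for Cd84 (r = 0.997), and 3249 and 3362 of 14668 genes exceeded 0.9. For Ly9 it was Pea15a (r = 0.986), for Slamf1 Phf6 (r = 0.979) and for Cd48 Tmod3 (r = 0.957). Slamf7 and Cd244 had no gene above 0.9, and their nearest were Gpc1 (r = 0.758) and AL607131.1 (r = 0.884). All these values share the division of the libraries into Tn and Treg.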

How the data were processed

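The authors prepared stranded mRNA libraries and sequenced them single-end. Per the labels, STAR and RSEM were used with GRCm38, and the authors deposited 1 table of expected counts per library, not normalized. The versions of STAR and RSEM and the strand setting are not given in the sources used here. Their methods name GENCODE m15, and coordinates here come from GENCODE M21, which had an entry for 98.9% of the 53090 rows and the same versioned identifier for all 7 members. Groups and replicate numbers came from the deposited sample titles.

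Expected counts were rounded to whole numbers. A gene was tested where 4 or more of the 8 libraries compared (16 for the interaction) held 10 or more counts. The test was edgeR 4.0.16, quasi-likelihood, two-sided, with robust estimation, TMM factors, adjustment after Benjamini-Hochberg over every gene tested, and a threshold of 0.05. For members under this filter, log2 CPM (prior count 2) was compared by an exact two-sided permutation test with 70 arrangements. The code was tested on simulated data. Alternatives were DESeq2 1.42.0, limma-voom 3.58.1, other scalings and filters, a replicate block, a term for replicates 1 and 2 against 3 and 4, and fewer libraries. No pair of replicates agreed within sampling noise. The members and gene lists were chosen with earlier results of these data known. All 7 members, Aim2, Slamf8, Slamf9, the adaptors and Cd2 are named. Also named are the neighbours between the outermost members that were called between genotypes, the 4 other pathway genes with the largest called culture changes, and the gene most correlated with each member.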

Additional observations from a re-analysis of the deposited data

Results flagged for a closer look

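Within 45 groups of 4 libraries, each gene and group was searched for a library far from the other 3, a gap that chance gives in about 1 group in 20. There were 3 such groups. Slamf6 in Aim2-/- Treg library 1 was at 20.0 CPM, against 12.3 to 13.2 CPM in the other libraries of that group, and Foxp3 was also highest there within the group, at 560 CPM. Aim2 in Aim2-/- Tn library 1 was at 9.26 CPM, against 6.61 to 7.0 CPM. The antisense transcript Gm37065 in the same library, Aim2-/- Tn library 1, was at 0.45 CPM, against 0.15 to 0.197 CPM.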

How the results depend on the processing

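Of 1023 single-gene values recomputed under the alternatives, 977 kept their direction and their side of the threshold, 12 lost the call, 9 gained it and 25 turned direction. The number of members called between genotypes stayed at 0 in Tn and for the interaction. In Treg it was 1 with the replicate block and 1 with the term for replicates 1 and 2 against 3 and 4, and the gene was Ly9 both times (0.31, adjusted p = 0.028 with the block). Over all genes, the block called 41 and the term 38 in Treg, against 29 in the main fit. No source used here says what the replicate numbers mark, and the deposited files number some libraries otherwise. Same-numbered libraries of the genotypes had r = 0.03 to 0.35 in Tn and -0.02 to 0.49 in Treg, and not every library correlated best with its own number, so they were not treated as pairs. With the block Slamf7 in Treg was -0.64 (adjusted p = 0.49). In WT culture 3 members stayed called without WT Tn libraries 3 and 4, an alternative chosen after seeing the data. Over all genes 10081 were called in that setting, against 10516 in the main fit. Leaving out each library in turn gave 0 to 0 called members between genotypes and for the interaction, 4 to 5 in WT culture and 4 to 6 in Aim2-/- culture.

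Every turn of direction was in a value that was not called, and the cause was not tested. In Tn, Slamf7 was -0.0040 with limma-voom, -0.0017 with the replicate block, -0.32 with libraries 3 and 4 alone and -0.26 to 0.29 with a library left out. Slamf1 was 0.077 with libraries 3 and 4 alone. Cd48 was 0.0074 with libraries 1 and 2 alone and 0.19 without WT Tn libraries 3 and 4. In Treg, libraries 3 and 4 alone gave -0.012 for Slamf1 and -0.15 for Cd84, and leaving out a library gave -0.064 to 0.094 and -0.032 to 0.16. In WT culture Slamf7 was 0.0052 with no filter, 0.17 with libraries 3 and 4 alone, 0.16 without WT Tn libraries 3 and 4, and -0.29 to 0.20 with a library left out. For the interaction, Cd84 was 0.079 with libraries 1 and 2 alone and -0.17 to 0.027 with a library left out, Slamf1 was -0.081 with libraries 3 and 4 alone, and Cd48 was -0.14 without WT Tn libraries 3 and 4. Depth limits Cd244 in Treg and Slamf8 in both states, which had at most 5 counts per library.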
